A study of Mus musculus with 12 samples.

Results

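The 9 genes described here, Acta2, Tagln, Myl9, Cnn1, Myh11, Tpm1, Tpm2, Cald1 and Smtn, encode the actomyosin apparatus of smooth muscle cells and of myofibroblasts. They were taken by symbol from the deposited table of aortic valve leaflets, 9 of its 41709 genes. In contractile cells, smooth muscle α-actin and smooth muscle myosin slide past each other. The myosin is switched on by phosphorylation of its regulatory light chain, and tropomyosin, caldesmon and calponin sit on the actin filament and restrain the interaction. A resting valve leaflet is filled mostly with fibroblast-like interstitial cells. When such cells are activated they take up part of the same gene set, Acta2 first among them, and are then called myofibroblasts, while Myh11, Cnn1 and Smtn mark mature smooth muscle. The transcription factor SRF and its cofactors of the myocardin family control many of these genes through a DNA element called the CArG box.

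The leaflets came from mice aged 2 months on the strain background given as C57BL/6J;129SvEv, with 3 libraries for each of 4 genotypes. The labels give the genotypes only as the codes CTRL, ECKO, SMKO and DKO. From general knowledge of the study, the deleted gene is Efemp2, which encodes fibulin-4, a matrix protein of elastic fibres. ECKO lacks it in endothelium, SMKO lacks it in smooth muscle, and DKO carries both deletions. No Cre driver or allele is named in the labels. As background, mouse work on smooth muscle deletion of this gene has used the promoter of Tagln, one of the 9 genes, to drive Cre. Whole leaflets were cut by laser from fixed, frozen sections 20 μm thick, so each value averages all cells of a leaflet, and fewer cells of a type cannot be told apart from less RNA per cell. The labels do not tie libraries to animals, so the p-values measure the spread between these libraries.

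Efemp2 had 58, 23 and 9 counts in the CTRL libraries, 3, 15 and 8 in the ECKO libraries, 4, 0 and 0 in the SMKO libraries, and 0 in all 3 DKO libraries. The libraries were shallow, at 74827 to 615665 counts (median 321312). The mitochondrially encoded share of counts was 26.7% in CTRL 3, 24.1% in SMKO 2, 28.5% in SMKO 3 and between 10.5% and 20.98% in the other 9 libraries. ECKO 2 carried RNA of heart muscle genes: 12 heart muscle markers summed to 937 CPM (counts scaled to a common library size, with TMM factors) in ECKO 2 and to between 20.5 and 110 CPM in the other 11 libraries. All 9 markers fixed for valve interstitial cells, such as Vim, Dcn and Col1a1, had counts in every group. These libraries touch several of the 9 genes, and values without them stand beside those results.

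Sequence upstream of the genes is shown first, because the CArG box is the element through which SRF acts on genes of this kind. RefSeq promoters of the GRCm38.p6 build, running from 250 bases before to 50 bases after the start of transcription, were matched for 7 of the 9 genes (8 promoters, 2 of them of Cald1). Tagln and Myh11 were not matched. The strict CArG box, searched by a pattern that reads the same on both strands, lay in 1 of these promoters, that of Myl9, and in 535 of all 32851 promoters of the same length (1.63%). When 1 base of the A/T core was allowed to be G or C, a form chosen after the strict search, Myl9 and Acta2 each held 2 boxes and the other 5 matched genes held none. Of the 32851 promoters, 9.98% held at least 1 box of this looser form and 0.82% held 2 or more. The 4 boxes, in capitals with 25 bases on either side, read 5′ to 3′ in the direction of transcription:
Myl9 distal box, strict form: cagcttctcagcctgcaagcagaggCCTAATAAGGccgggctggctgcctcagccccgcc
Myl9 proximal box, looser form: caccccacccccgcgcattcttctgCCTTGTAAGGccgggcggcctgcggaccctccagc
Acta2 distal box, looser form: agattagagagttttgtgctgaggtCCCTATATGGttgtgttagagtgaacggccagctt
Acta2 proximal box, looser form: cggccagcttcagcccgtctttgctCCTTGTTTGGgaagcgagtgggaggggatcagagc
The Myl9 stretches lie on the plus strand at chr2:156775278-156775337 and chr2:156775340-156775399, with boxes that begin 161 and 99 bases before the start. The Acta2 stretches lie on the minus strand at chr19:34255423-34255482 and chr19:34255373-34255432, with boxes that begin 84 and 34 bases before the start. A match is a description of letters and not a measured binding site.

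Per unit of transcript length, the leaflets expressed a partial contractile set. On the authors' TPM scale (which divides by gene length and so allows a comparison between genes), Acta2 was the highest in CTRL at 144 ± 39.1 TPM (mean ± SD, n = 3), followed by Tagln at 104 ± 71.8, Tpm1 at 65.5 ± 18.2 and Myl9 at 58.8 ± 17.9. Cald1 followed at 25.1 ± 12.3 TPM, Smtn at 17.2 ± 7.80 and Tpm2 at 13.2 ± 5.45. At the bottom, Myh11 reached 0.173 ± 0.299 TPM and Cnn1 was at 0 in all 3 CTRL libraries. The CTRL ranges of neighbours in this order overlapped from Acta2 to Myl9 and again from Cald1 to Tpm2. They did not overlap between Myl9 (40.0 to 75.7 TPM) and Cald1 (12.1 to 36.6 TPM), or between Tpm2 (7.37 to 18.2 TPM) and Myh11 (0 to 0.518 TPM). The genes of mature smooth muscle were therefore the least abundant of the 9, except for Smtn.

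For 5 of the families, shares of TPM could be set against relatives used in most cells. In CTRL, Acta2 made up 3.02% ± 0.135 of the sum of Acta2, Actb and Actg1, and Myl9 made up 5.42% ± 0.499 of the sum of Myl9, Myl6, Myl12a and Myl12b (SD, n = 3). Myl6 encodes the essential light chain, a different subunit from the regulatory chain of Myl9, and it dominates that sum. Its CTRL mean was 713 TPM, beside 211 for Myl12a and 111 for Myl12b. Tpm1 and Tpm2 together made up 9.94% ± 0.242 of the 4 tropomyosin genes, and Myh11 made up 0.140% ± 0.243 of Myh11, Myh9 and Myh10. Cnn1 was at 0 beside Cnn2 and Cnn3. In DKO the shares of Acta2, Myl9, the 2 tropomyosins and Myh11 were 3.27% ± 0.463, 5.11% ± 2.18, 10.1% ± 2.16 and 1.54% ± 0.530. They were 3.38% ± 1.37, 9.76% ± 3.53, 15.0% ± 6.70 and 0.739% ± 0.676 in ECKO, where ECKO 2 reached 22.6% for the tropomyosins. In SMKO they were 2.67% ± 1.08, 8.90% ± 7.62, 7.28% ± 1.28 and 0.448% ± 0.775, with Myl9 between 1.82% and 17.0%. Relatives used in most cells thus held most of the message of each family, as summed here, in all 4 groups.

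All 9 genes together had 2969 counts, from 30 in SMKO 3 to 629 in ECKO 2. Of the 9, Acta2, Tagln, Myl9, Tpm1, Cald1 and Smtn passed the low-count filter (6 genes). Tpm2, Cnn1 and Myh11 fell under it. Genotypes were compared with edgeR's quasi-likelihood test, fitted over all 12 libraries and 6296 genes, and a gene was called at a Benjamini-Hochberg adjusted p under 0.05. None of the 6 was called in any of the 6 pairs of groups, in the interaction of the deletions, in either averaged deletion effect or in the test over the 4 groups. The share of all tested genes called was 0.492% for DKO against CTRL and 0.572% for DKO against ECKO. It was 0% for ECKO against CTRL, SMKO against CTRL, DKO against SMKO and SMKO against ECKO. It was 0.0318% for the interaction, 0.206% for the smooth muscle deletion averaged over endothelial genotype, 0% for the endothelial deletion averaged likewise, and 0.302% over the 4 groups. At an unadjusted p under 0.05, Myl9 passed in ECKO against CTRL, Acta2 in DKO against SMKO and in the interaction, Tpm1 in SMKO against ECKO, and Acta2 in the test over the 4 groups. The share of all tested genes under that unadjusted threshold was 4.34% for ECKO against CTRL, 6.29% for DKO against SMKO, 6.23% for the interaction, 3.8% for SMKO against ECKO and 8.99% over the 4 groups.

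**Figure D1:**
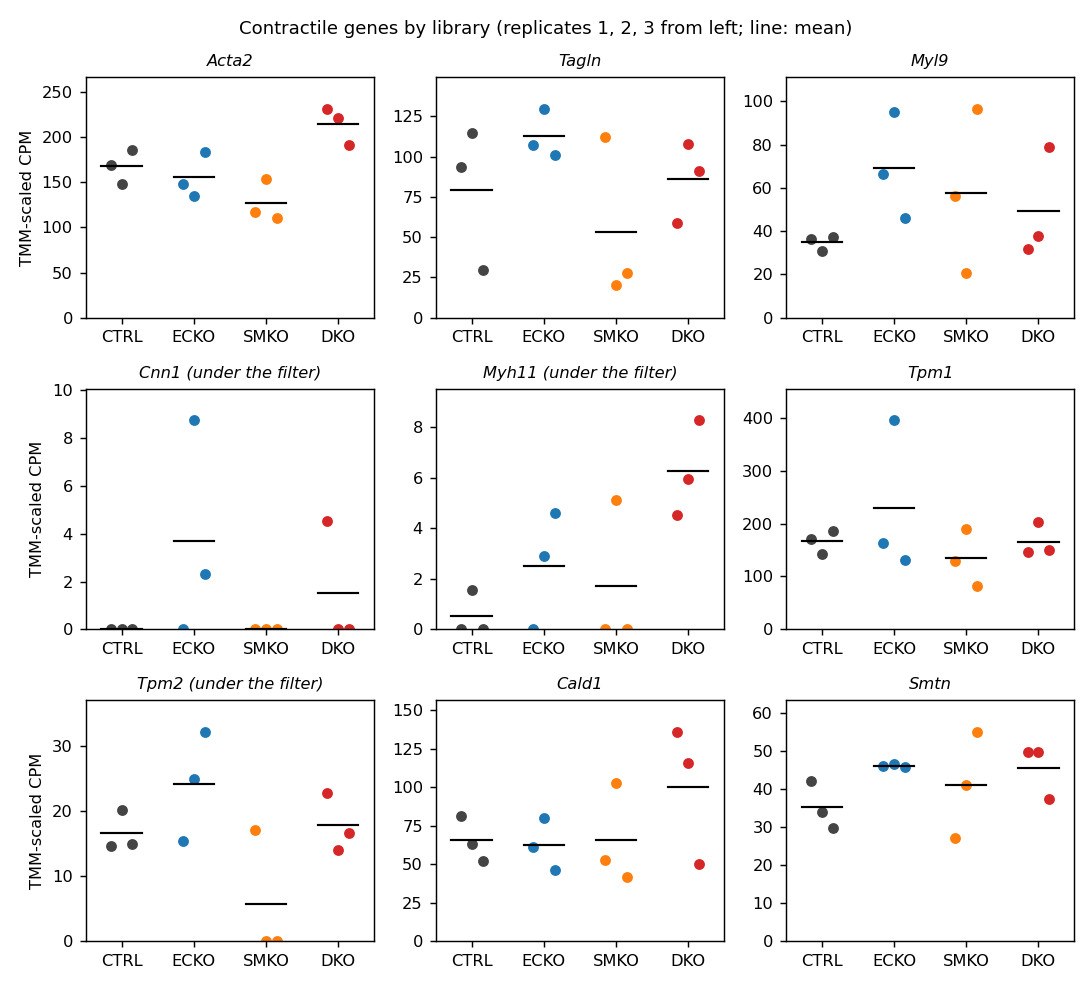
Level of each of the 9 genes in every library (TMM-scaled CPM on the vertical axis, genotype group on the horizontal axis, points for libraries 1 to 3 from left to right, line at the group mean). Acta2 lies highest in the 3 DKO libraries (191 to 232 CPM), Tagln is low in CTRL 3, SMKO 2 and SMKO 3, and Tpm1 stands out in ECKO 2 at 395 CPM.

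Acta2, smooth muscle α-actin and the standard marker of an activated valve interstitial cell, had the smallest p of the 6 genes in the test over the 4 groups (edgeR adjusted p = 0.543). The CTRL libraries held 116, 96 and 25 counts of Acta2 and the ECKO libraries 29, 92 and 80. The SMKO libraries held 69, 30 and 8 counts, and the DKO libraries 51, 111 and 46. Scaled between libraries, Acta2 was at 169, 148 and 186 CPM in CTRL and at 149, 134 and 184 CPM in ECKO. It was at 117, 154 and 110 CPM in SMKO and at 232, 221 and 191 CPM in DKO. Every DKO library lay above every library of the other 3 groups, while CTRL, ECKO and SMKO overlapped.

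The Acta2 difference between DKO and SMKO was 0.74 ± 0.26 on the log2 scale (estimate ± SE, 95% interval 0.22 to 1.26). It was not called over all genes (edgeR adjusted p = 0.527, range over 21 alternative analyses 0.0781 to 0.9998). The unadjusted p was under 0.05 in 20 of those 21, the exception being the fit without SMKO 1. Against CTRL the DKO level differed by 0.38 ± 0.24 (95% interval -0.10 to 0.86, adjusted p = 0.572), and against ECKO by 0.47 ± 0.24 (-0.02 to 0.95, adjusted p = 0.487). Groups that do not overlap were common: 17.8% of all tested genes had this separation in DKO against CTRL, 18.9% in DKO against ECKO and 9.55% in DKO against SMKO. In the authors' deposited table the Acta2 fold change of DKO was 1.74 over SMKO (p = 0.00359), 1.42 over ECKO (p = 0.0434) and 1.31 over CTRL (p = 0.112).

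The 2 deletions together and singly were set against each other for Acta2. SMKO differed from CTRL by -0.36 ± 0.26 (95% interval -0.89 to 0.16) and ECKO by -0.09 ± 0.24 (-0.57 to 0.40), both on the log2 scale. The interaction, which asks whether DKO departs from the sum of the single deletions, was 0.83 ± 0.35 (0.12 to 1.54, adjusted p = 0.739). The estimates for Acta2 thus lay below CTRL in the single deletions and above it in DKO, with none of these differences called. The ECKO estimate turned to 0.030 when ECKO 2, the library with heart muscle RNA, was left out. On the authors' TPM scale Acta2 ranged from 129 to 213 TPM in DKO, wholly above SMKO (72.2 to 107 TPM) but overlapping CTRL (103 to 180 TPM) and ECKO (102 to 179 TPM).

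**Figure D2:**
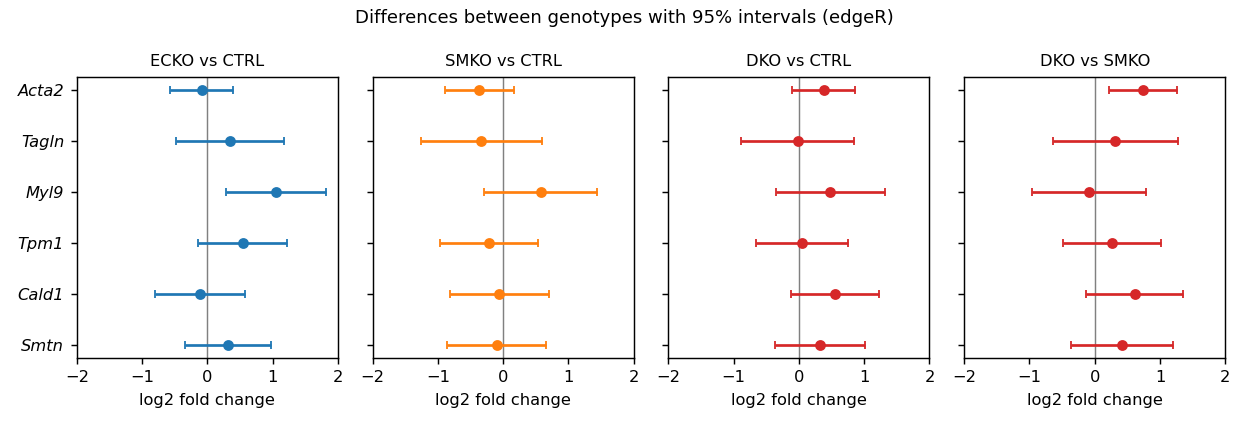
Difference in level between genotypes for the 6 genes that passed the low-count filter (log2 fold change on the horizontal axis, points for edgeR estimates, bars for 95% intervals, 1 panel per comparison). Only the intervals of Myl9 in ECKO against CTRL (0.29 to 1.82) and of Acta2 in DKO against SMKO (0.22 to 1.26) lie clear of 0 in these 4 panels, and neither gene was called after adjustment.

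Tagln, which encodes transgelin, an actin-binding protein of early smooth muscle, varied more within groups than between them. The CTRL libraries held 64, 74 and 4 counts of Tagln, and the ECKO libraries 21, 89 and 44. The SMKO libraries held 66, 4 and 2, and the DKO libraries 13, 54 and 22. Scaled, CTRL stood at 93.3, 114 and 29.7 CPM, ECKO at 108, 130 and 101, SMKO at 112, 20.5 and 27.6, and DKO at 59.0, 108 and 91.2. CTRL 3, SMKO 2 and SMKO 3 lay below all other libraries, and these are the 3 libraries with the largest mitochondrial share. CTRL 3 and SMKO 3 were also the shallowest libraries, at 159857 and 74827 counts in total, while SMKO 2 had 263589.

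Over the 12 libraries the log2 level of Tagln fell as the mitochondrial share rose (Pearson r = -0.818, permutation p = 0.00096, or 0.00576 after Benjamini-Hochberg adjustment over the 6 genes examined). Spearman's rank correlation was -0.706 (permutation p = 0.0131, or 0.0787 after that adjustment). Computed on deviations from the group means, r was -0.815, and without CTRL 3 and SMKO 3 it was -0.668. The other 5 genes had r between -0.325 and 0.149. The relation was looked at after the levels had been seen, and the part of RNA quality in the Tagln level was not tested. Nor was the part of library depth tested. With a term for the library total in the fit, Tagln in DKO against CTRL was 0.36 in place of -0.02. Tagln in SMKO against CTRL differed by -0.33 ± 0.44 (log2, 95% interval -1.26 to 0.59, adjusted p = 0.941), and by 0.13 without the 3 libraries. With SMKO 1 left out, only low libraries remained in SMKO and the difference was -1.98.

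Tagln in DKO differed from CTRL by -0.02 ± 0.41 (95% interval -0.88 to 0.85) and in ECKO by 0.35 ± 0.40 (-0.49 to 1.18), and neither difference exceeded the spread between libraries. The exons of Tagln overlap those of Pcsk7, a proprotein convertase gene on the opposite strand, and 40.9% of the 75-base windows of its transcript are shared with Pcsk7 or with the antisense gene Gm48529. The Nextera kit keeps no strand. Pcsk7 had between 1 and 17 counts in a library. In CTRL 3, SMKO 2 and SMKO 3 it had 2, 1 and 1 counts beside 4, 4 and 2 of Tagln. Reads from the shared windows cannot be told apart without strand. Gm48529 had no counts in any library.

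**Figure D3:**
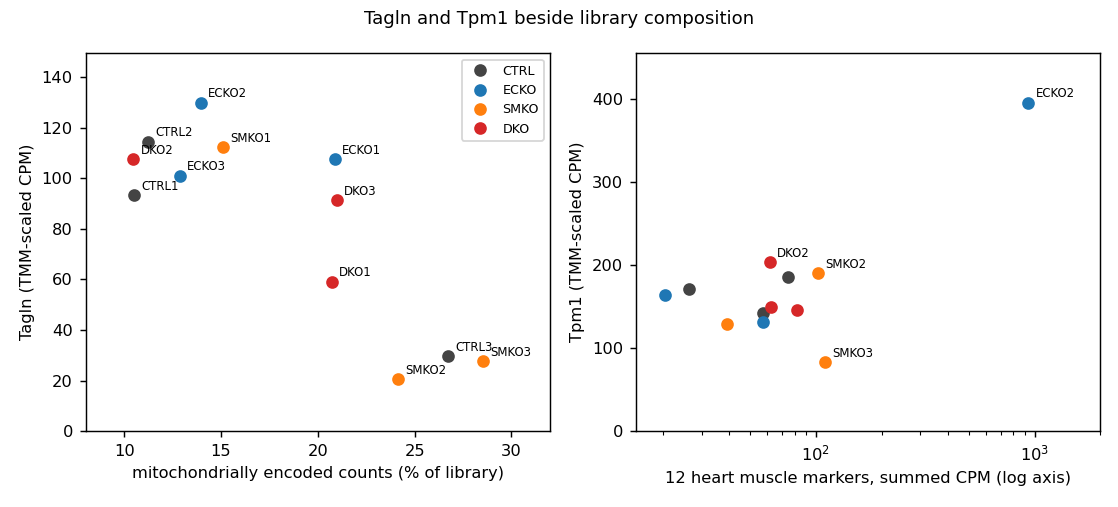
Left, Tagln level against the share of mitochondrially encoded counts in each library; right, Tpm1 level against the summed level of 12 heart muscle markers (log axis); points are single libraries coloured by genotype. CTRL 3, SMKO 2 and SMKO 3 are low for Tagln and high for the mitochondrial share, and ECKO 2 lies alone at 937 CPM of heart muscle markers and 395 CPM of Tpm1.

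Myl9 encodes the regulatory light chain whose phosphorylation switches on smooth muscle and non-muscle myosin. CTRL had 25, 20 and 5 counts of Myl9, ECKO 13, 65 and 20, SMKO 33, 4 and 7, and DKO 7, 19 and 19. The corresponding CPM were 36.4, 30.9 and 37.1 for CTRL, 66.6, 94.8 and 45.9 for ECKO, 56.1, 20.5 and 96.6 for SMKO, and 31.8, 37.8 and 78.8 for DKO. All 3 ECKO libraries lay above all 3 CTRL libraries, and SMKO spanned the full range of the other groups.

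The difference of Myl9 between ECKO and CTRL was 1.05 ± 0.37 on the log2 scale (95% interval 0.29 to 1.82, edgeR adjusted p = 0.998, from 0.494 to 1 over 21 alternatives). The value was 0.66 without ECKO 2, the library with heart muscle RNA, which was the 1 alternative of 21 with an unadjusted p over 0.05. Smtn was the other gene with ECKO wholly above CTRL, against 11.8% of all tested genes with groups that do not overlap in that comparison. Myl9 in DKO differed from CTRL by 0.48 ± 0.41 (95% interval -0.36 to 1.32), and in SMKO by 0.57 ± 0.43 (-0.30 to 1.44). Its interaction was -1.14 ± 0.57 (-2.30 to 0.02, adjusted p = 0.798), opposite in sign to that of Acta2. The difference between the 2 genes was not tested.

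Tpm1 encodes a tropomyosin used by smooth muscle, heart muscle and, as other splice forms, by most cells. CTRL had 117, 92 and 25 counts of it, ECKO 32, 271 and 57, SMKO 76, 37 and 6, and DKO 32, 102 and 36. Tpm1 stood at 171, 142 and 186 CPM in CTRL and at 164, 395 and 131 CPM in ECKO. It stood at 129, 190.0 and 82.8 CPM in SMKO and at 145, 203 and 149 CPM in DKO. ECKO 2 was far above every other library, and the remaining 11 fell between 82.8 and 203 CPM.

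In ECKO 2 the heart muscle genes Actc1, Tnnt2, Myl2 and Myh6 had 195, 124, 94 and 36 counts. Tpm1 in ECKO against CTRL was 0.54 ± 0.33 (log2, 95% interval -0.14 to 1.22, adjusted p = 0.998) with ECKO 2 and -0.16 without it, so its direction rested on that library. In SMKO against ECKO the Tpm1 difference was -0.76 ± 0.35 (-1.48 to -0.03, adjusted p = 0.9996), and it was -0.06 without ECKO 2. SMKO did not lie wholly apart from ECKO for any of the 6 genes, where 9.28% of all tested genes did. DKO and CTRL differed for Tpm1 by 0.05 ± 0.34 (-0.66 to 0.75).

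Cald1 encodes caldesmon, which binds actin, myosin and tropomyosin and restrains contraction. CTRL had 56, 41 and 7 counts of Cald1, ECKO 12, 55 and 20, SMKO 31, 20 and 3, and DKO 30, 58 and 12. Cald1 levels in DKO were 136, 116 and 49.8 CPM, so 2 DKO libraries were the highest of all 12 and DKO 3 was among the lowest. The other groups ranged from 52.0 to 81.6 CPM (CTRL), from 45.9 to 80.3 (ECKO) and from 41.4 to 103 (SMKO). DKO differed from CTRL by 0.56 ± 0.33 on the log2 scale (95% interval -0.12 to 1.23, adjusted p = 0.543) and from ECKO by 0.66 ± 0.34 (-0.02 to 1.35, adjusted p = 0.484), neither beyond the spread between libraries.

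Smtn encodes smoothelin, an actin-associated protein of contractile smooth muscle. CTRL had 29, 22 and 4 counts of Smtn, ECKO 9, 32 and 20, SMKO 16, 8 and 4, and DKO 11, 25 and 9. Smtn levels were close together: 29.7 to 42.3 CPM for CTRL, 45.9 to 46.7 for ECKO, 27.2 to 55.2 for SMKO and 37.3 to 49.9 for DKO. The ECKO libraries lay just above the CTRL libraries, by 0.32 ± 0.32 on the log2 scale (95% interval -0.34 to 0.98, adjusted p = 0.998), and DKO differed from CTRL by 0.32 ± 0.34 (-0.37 to 1.01). Of the 75-base windows of the Smtn transcript, 9.54% are shared with Gm11946, a transcript on the opposite strand without counts in any library. For the other 7 of the 9 genes, no window was shared with another gene.

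Tpm2, a second muscle tropomyosin, fell under the filter. CTRL had 10, 13 and 2 counts of Tpm2, ECKO 3, 17 and 14, SMKO 10, 0 and 0, and DKO 5, 7 and 4. The 2 libraries without Tpm2, SMKO 2 and SMKO 3, also had few Tagln counts, as did CTRL 3, which had 2 counts of Tpm2. SMKO 3 was the shallowest library, at 74827 counts in total, which limits what its 0 counts can show. Pooled within groups, the SMKO to CTRL ratio of Tpm2 was 0.687 (exact 95% interval 0.294 to 1.48, counting error only), and a two-sided exact permutation test on log2(CPM + 1) gave p = 0.3, where 0.1 is the smallest p that 3 libraries against 3 allow. The DKO to CTRL ratio was 0.975 (0.486 to 1.90, exact permutation p = 0.7).

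Myh11 and Cnn1, the smooth muscle myosin heavy chain and calponin 1, were close to the detection limit everywhere. For Myh11 the counts of libraries 1 to 3 were 0, 1 and 0 for CTRL, 0, 2 and 2 for ECKO, 0, 1 and 0 for SMKO, and 1, 3 and 2 for DKO. It was the only one of these 2 genes with a count in every DKO library, and its DKO levels of 4.54, 5.97 and 8.29 CPM all lay above the CTRL levels of 0, 1.55 and 0. DKO 1 and CTRL 2 held 1 count each, so this separation came from the scaling between libraries. Of the genes that passed the filter, which Myh11 did not, 17.8% had DKO and CTRL groups that do not overlap. SMKO 2, at 5.14 CPM of Myh11, and ECKO 3, at 4.59 CPM, lay above DKO 1. Pooled, 6 counts in DKO stood against 1 in CTRL, a ratio of 9.14 with an exact 95% interval of 1.11 to 420 that covers counting error only (exact permutation p = 0.1, the smallest possible here). In the authors' deposited table the Myh11 fold change of DKO over CTRL was 6.55 (p = 0.0605).

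Cnn1 had no counts in CTRL or SMKO, 1 count in DKO 1 and 7 in ECKO, of which 6 were in ECKO 2. A count of 0 over the 3 CTRL libraries allows up to 2.04 CPM (3 counts of the pooled total). In ECKO 2, Des, a muscle intermediate filament gene, also had 11 counts, against 0 to 2 in the other libraries. The part of the heart muscle RNA of ECKO 2 in its Cnn1, Myl9 and Tpm1 counts was not tested.

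The 6 genes that passed the filter did not move as a block from library to library. Over the 12 libraries, Pearson r of log2 levels ran from -0.557 to 0.527 for the 15 pairs of genes, with a median of 0.155, and 10 pairs were positive. For Pearson r, none of the 15 had an adjusted permutation p under 0.05, and none an unadjusted one. Spearman's rank correlation of Myl9 with Cald1 was -0.608 (permutation p = 0.0387, or 0.390 after adjustment over the 15 pairs). Counts as low as 2 (Tagln in SMKO 3) limit these correlations. On deviations from group means Pearson r ran from -0.824 to 0.597. Their median log2 difference was 0.35 in DKO against CTRL (5 higher, 1 lower), 0.33 in ECKO against CTRL (4 higher, 2 lower) and -0.16 in SMKO against CTRL (1 higher, 5 lower), beside medians over all tested genes of 0.016, -0.0041 and 0.0043. These 3 comparisons share the CTRL libraries. In SMKO against CTRL no gene of the 6 had groups that do not overlap, where 10.5% of all tested genes did.

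Genes whose levels ran most like the mean of the 6 scaled levels over the 12 libraries were Eprs (r = 0.849), Cdc42ep3 (r = 0.846), Sdk2 (r = 0.807) and Nppc (r = 0.781), followed by Xylt1, Kpna2, Plod2 and Tmed9 (r from 0.760 down to 0.743). These 8 were picked as the highest among the other tested genes, so a high r was built in. On deviations from group means their r ran from 0.315 (Nppc) to 0.858 (Sdk2). None of the 8 belongs to the contractile or myofibroblast lists examined.

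Of 16 other contractile genes, 9 passed the filter and none passed the test in any comparison. Their levels were uneven: the LIM-domain genes Fhl1 and Pdlim3 stood at 584 to 847 and 260 to 420 CPM in CTRL, while Actg2, the γ-actin of enteric smooth muscle, had counts in DKO 3 alone (2 counts). In DKO against CTRL 3 of the 9 were higher and 6 lower, with a median of -0.24 beside 0.02 for all genes. The summed level of the 16 was 1406 to 1602 CPM in CTRL, 1335 to 1475 in ECKO, 1042 to 1366 in SMKO and 1144 to 1185 in DKO. The DKO range thus lay within that of SMKO. Most of that sum is Fhl1 (mean 753 CPM in CTRL, 510.2 in DKO) and Pdlim3 (350 and 245 CPM), while Csrp1 went the other way (76.7 and 133 CPM), and the sum was not tested.

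In that list the smallest p over the 4 groups belonged to Synpo2 and Csrp1. Synpo2, the actin-bundling protein synaptopodin-2, was at 45.2, 41.7 and 29.7 CPM in CTRL and 9.08, 13.9 and 8.29 CPM in DKO, a difference of -1.85 ± 0.49 (log2, adjusted p = 0.0742, called in 3 of 20 alternatives). Csrp1, a LIM-domain protein of smooth muscle, differed by 0.78 ± 0.32 (adjusted p = 0.313). The 11 relatives used in most cells all passed the filter and none passed the test. Their median in DKO against CTRL was 0.12, with Myl6, the essential light chain, at 0.76 ± 0.30 (adjusted p = 0.281) and Myh10, non-muscle myosin IIB, at -0.66 ± 0.25 (adjusted p = 0.251).

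Matrix and signalling markers of the myofibroblast state were set beside the contractile genes. Of 15 such markers 13 passed the filter, and in DKO against CTRL 12 were higher and 1 lower, with a median of 0.68 beside 0.35 for the 6 contractile genes and 0.02 for all genes. None passed the test in that comparison. In ECKO against CTRL the order was the other way, with medians of 0.092 for the markers and 0.33 for the 6 contractile genes. Postn, Col1a1 and Col3a1 are also among the 9 interstitial cell markers. Of those 9, 8 passed the filter, and in DKO against CTRL 6 were higher and 2 lower, with a median of 0.27. Pdgfra was at -1.71 ± 0.44 and Col1a1 at 1.29 ± 0.39 (adjusted p = 0.120 and 0.132). The 15 myofibroblast markers summed to 16562 to 24544 CPM in DKO. SMKO 2 lay within that range at 21378 CPM, and SMKO 1 and SMKO 3 lay at 9667 and 8116 CPM. Ccn2, a matricellular protein induced by TGF-β and by mechanical load, stood at 1140, 764 and 1337 CPM for CTRL, 1188, 1024 and 810 for ECKO, 664, 1802 and 566 for SMKO, and 3632, 2953 and 2521 for DKO. It rose in DKO against ECKO by 1.59 ± 0.36 (log2, adjusted p = 0.0399), and its level in DKO was 2.82-fold that in CTRL (adjusted p = 0.0535). The call against ECKO was lost when CTRL 1 or any 1 of the ECKO or DKO libraries was left out (adjusted p up to 0.283 over 21 alternatives, 13 of which called it). The difference between the contractile genes and the matrix markers was not tested.

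**Figure D4:**
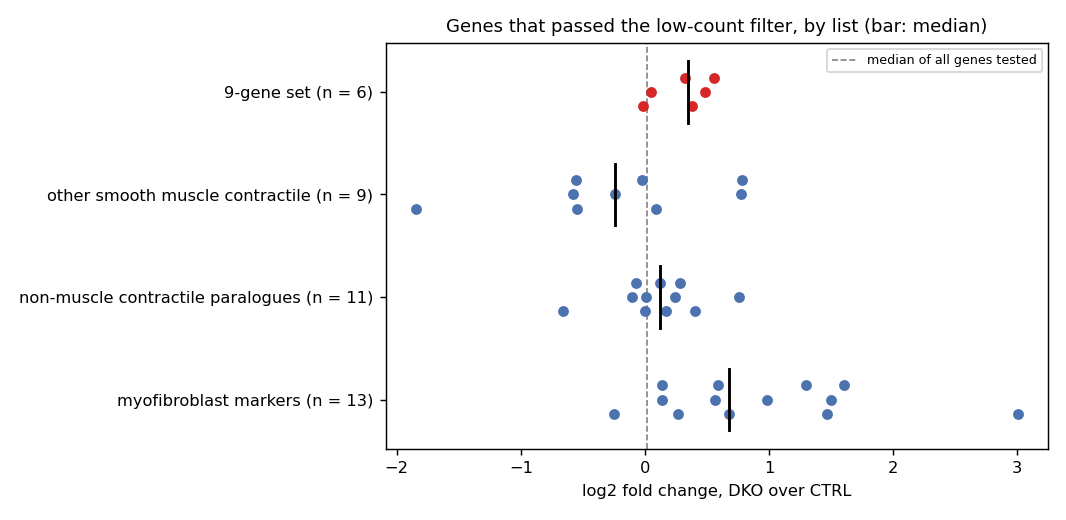
Log2 fold change of DKO over CTRL for each gene that passed the low-count filter, by list (points are genes, black bars list medians, dashed line the median of all tested genes at 0.02). The 6 contractile genes have a median of 0.35, the other smooth muscle contractile genes -0.24 and the myofibroblast markers 0.68.

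Markers of other cells that use contractile genes were examined beside these values. In pericytes, mural cells of small vessels, the 8 markers summed to 587 to 717 CPM for CTRL, 502 to 606 for ECKO, 400.3 to 509 for SMKO and 585 to 654 for DKO. Of the 7 that passed the filter, 5 were higher and 2 lower in DKO than in CTRL, with a median of 0.14. The 1 marker called was among the lower: Abcc9, a potassium channel subunit, with a log2 difference of -1.23 ± 0.25 (adjusted p = 0.0157). Its call was lost without CTRL 1, CTRL 2, DKO 2 or DKO 3. Of the 9 endothelial markers, 2 were higher and 7 lower in DKO than in ECKO (median -0.80). Against CTRL, 4 were higher and 5 lower in DKO (median -0.96). The markers called were Kdr and Prox1, lower in DKO than in ECKO, with log2 differences of -1.76 ± 0.40 (adjusted p = 0.0399) and -2.48 ± 0.53 (adjusted p = 0.0336). The melanocyte gene Dct was higher in DKO than in ECKO, by 2.57 ± 0.49 (adjusted p = 0.0399). Against CTRL its difference in DKO was 0.10 ± 0.41 (adjusted p = 0.968). Dct was low in ECKO, at 35.8, 23.3 and 45.9 CPM, beside 149, 303 and 74.3 in CTRL. Each of these 3 calls was lost without CTRL 1, ECKO 2, ECKO 3, DKO 1 or DKO 2, and those of Kdr and Dct also without ECKO 1 or DKO 3. The part of such cells in the levels of the 9 genes was not tested.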

How the data were processed

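RNA of leaflets from 12 libraries was sequenced as 75-base read pairs from Nextera XT libraries, per the labels' protocols. The submitters' processing notes name GRCm39 as genome build. Which aligner and counter were used is not given here. The authors deposited whole-number counts and TPM per gene, with their own fold changes (a signed score, negative where DKO is lower) and p-values for DKO against each group. The main test was edgeR 4.0.16 on TMM-scaled counts (R 4.3.3; filterByExpr, minimum count 10; quasi-likelihood F test, robust; 6296 genes, 93.1% of counts). Adjusted p-values come from edgeR where no other source is named, and each standard error was obtained from the fold change and its F value. Replicates of each group differed by more than sampling noise (chi-square per degree of freedom 3.28 to 7.96). Intervals on counts and floors of 3 counts cover counting error only, since PCR copies are not independent molecules. Shared 75-base windows and overlaps were read from GENCODE transcripts of GRCm38, and promoters from RefSeq GRCm38.p6; neither is the build of the counts. The 9 genes and all lists were chosen with earlier results of these data known. The rule named the 9 genes, Efemp2, list genes that passed a comparison or else the 2 with the smallest p over the 4 groups, and the 8 genes most correlated with the 6 that passed the filter. DESeq2 1.42.0, limma 3.58.1 (voom), RLE scaling, no filter, a depth term, a replicate block, no mitochondrial genes, pairs alone and libraries left out were the alternatives. The code was tested on simulated counts.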

Additional observations from a re-analysis of the deposited data

How the results depend on the processing

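None of the 6 tested genes was called under any of 21 alternatives, in any comparison. Of 1116 values of their differences under an alternative, 66 changed sign, in 20 of 54 results, all of them uncalled, and the cause was not tested. Under single settings, with differences on the log2 scale, Smtn in DKO against ECKO was 0.0047 without a low-count filter and 0.032 with limma-voom. The Tagln interaction was 0.022 without the filter and 0.014 with DESeq2, and the Tpm1 interaction 0.028 with limma-voom. Tagln in DKO against CTRL was 0.023 with DESeq2, 0.068 with the replicate block and 0.36 with a depth term. Cald1 in SMKO against CTRL was 0.035 with the depth term, and in SMKO against ECKO it was -0.12 with limma-voom. Without CTRL 3, SMKO 2 and SMKO 3, a choice made after seeing the data, Tagln was 0.13 in SMKO against CTRL and -0.37 in DKO against SMKO, and Cald1 was -0.26 in SMKO against ECKO.

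With 1 library left out at a time, ranges that crossed 0 for the averaged smooth muscle deletion were -0.033 to 0.12 for Acta2, -0.21 to 0.20 for Myl9 (sign changed in 12 of 20 alternatives) and -0.12 to 0.14 for Smtn. For ECKO against CTRL they were as follows: Acta2 -0.23 to 0.030, Tpm1 -0.16 to 0.83 and Cald1 -0.40 to 0.095. For SMKO against CTRL they were -1.98 to 0.045 for Tagln, -0.45 to 0.25 for Cald1, -0.22 to 0.29 for Smtn and -0.46 to 0.88 for Myh11. For DKO against CTRL they were -0.25 to 0.25 for Tagln, -0.15 to 0.12 for Tpm1 and -0.11 to 0.23 for Tpm2. For DKO against ECKO they were -0.79 to 0.20 for Tpm1 and -0.093 to 0.12 for Smtn. For DKO against SMKO they were -0.085 to 1.96 for Tagln and -0.50 to 0.13 for Myl9, and for SMKO against ECKO -0.33 to 0.36 for Cald1. For the interaction they were -0.42 to 1.61 for Tagln, -0.58 to 0.42 for Tpm1 and -0.30 to 0.22 for Smtn. Myh11 and Tpm2 fell under the filter, so their values are differences of mean log2(CPM + 1). These ran from -0.46 to 0.88 for Myh11 in SMKO against CTRL and from -0.11 to 0.23 for Tpm2 in DKO against CTRL. Both of these ranges also cover RLE scaling and counts without mitochondrial genes.

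The number of genes called, against which the 9 were read, moved more. It was 31 for DKO against CTRL, 36 for DKO against ECKO, 2 for the interaction, 13 for the averaged smooth muscle deletion and 19 over the 4 groups, and 0 for the other comparisons. Without the low-count filter these were 158, 173, 28, 149 and 218, with 15 for ECKO against CTRL, 8 for SMKO against CTRL, 32 for DKO against SMKO, 16 for SMKO against ECKO and 26 for the averaged endothelial deletion. DESeq2 called 2 for ECKO against CTRL, 3 for DKO against SMKO, 2 for SMKO against ECKO, 1 for the interaction, 44 for the averaged smooth muscle deletion and 37 over the 4 groups. Limma-voom called 65 for DKO against CTRL, 95 for DKO against ECKO, 54 for DKO against SMKO, 7 for the interaction, 8 for the averaged endothelial deletion and 86 over the 4 groups. The depth term gave 16, 10, 6 and 9 for DKO against CTRL, DKO against ECKO, the averaged smooth muscle deletion and the 4 groups. Fits of the 2 groups alone gave 99 for DKO against CTRL, 172 for DKO against ECKO, 3 for ECKO against CTRL and 1 for SMKO against ECKO. Without CTRL 3, SMKO 2 and SMKO 3 the counts were 172 for DKO against CTRL, 193 for DKO against ECKO, 82 for DKO against SMKO, 44 for the interaction, 47 for the averaged endothelial deletion and 184 over the 4 groups. Leaving out 1 library at a time gave 4 (CTRL 2) to 139 (SMKO 2) for DKO against CTRL, 0 (ECKO 2, ECKO 3 or DKO 1) to 150 (SMKO 2) for DKO against ECKO, and 0 to 128 (SMKO 2) for DKO against SMKO. It gave 0 to 62 for the interaction, 5 to 93 and 0 to 32 for the averaged smooth muscle and endothelial deletions, 3 to 150 over the 4 groups, 0 to 2 for ECKO against CTRL, and 0 to 1 for SMKO against CTRL and for SMKO against ECKO.

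Deviations of same-numbered libraries from their group means correlated weakly, at r from -0.130 to 0.151 (median 0.0705). Libraries with different numbers correlated at r from -0.176 to 0.146 (median -0.0379). Of 12 libraries, 11 correlated best with a library of their own number. Whether the replicate numbers mark a pairing or a batch is not said in the labels and was not tested. With the replicate block 50 genes were called in DKO against CTRL. Among the 6 genes that passed the filter, the sign turned for Cald1 in ECKO against CTRL (0.0038) and in SMKO against ECKO (-0.082). The sign also turned for Tagln as given above, and none of the 6 was called. Depth limits Cnn1, Myh11 and Tpm2, which pooled 0 to 7, 1 to 6 and 10 to 34 counts in a group.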
